A study of Homo sapiens with 18 samples.

Results

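The 10 genes described here encode proteins that carry a CXXC zinc finger or act on DNA methylation: CXXC1, CXXC4, CXXC5, TET1, TET3, DNMT1, MBD1, FBXL19, KMT2A and KMT2B. They were chosen by name out of 19974 genes that code for protein and lie on the autosomes or on X. A peak was assigned to a gene when at least 1 bp of it fell in the RefSeq gene record (GRCh38) or within 10 kb either side. The chromatin came from MDA-MB-231, an established human triple-negative breast cancer cell line with mesenchymal features, and was assayed by ChIP-seq, sequencing of DNA bound by a factor or mark. KDM2B, MYC, H3K4me3, H3K27me3 and H2AK119ub were precipitated from the parental line, and H3K27ac from cells of the same line carrying an empty vector (EV). ATF4 libraries were also labelled for the parental line and were not analysed here, and each cell stock had its own input libraries. Every group had 2 libraries, 18 in all, and no treatment or genotype was compared. Each target had 1 deposited peak list, so values do not resolve the libraries and no replicate error, depth or test could be given. H3K27ac came from another cell stock than the other targets, so its overlap with them is between cell stocks.

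A CXXC zinc finger is a small fold, held by zinc, that binds CpG dinucleotides when their cytosines are unmethylated, as they mostly are in CpG islands at gene starts. KDM2B, a histone demethylase, itself carries a CXXC domain and recruits a variant Polycomb complex, ncPRC1.1, which places ubiquitin on H2A (H2AK119ub). Most of the members use the same fold for other ends: H3K4 methylation at CpG islands, upkeep or removal of DNA methylation, or Wnt signalling. H3K4me3 and H3K27ac mark active promoters, H3K27me3 is the mark of the other Polycomb complex, PRC2, and MYC is a transcription factor that binds the E-box CACGTG.

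All 10 members had MYC, H3K4me3 and H3K27ac in their record or flanks, 9 had KDM2B, 7 had H2AK119ub and 3 had H3K27me3. Over all protein-coding genes the shares with a peak were 78.7% for MYC, 82.6% for H3K4me3, 78.2% for H3K27ac, 59.4% for KDM2B, 68.0% for H2AK119ub and 50.1% for H3K27me3. CXXC4 was the member without KDM2B. CXXC1, CXXC4 and MBD1 lacked H2AK119ub, and CXXC1, TET1 and KMT2B were the 3 with H3K27me3. The records of the members had a median length of 31585.5 bp, against 24170.5 bp for all protein-coding genes, and a longer record can hold more peaks by its length alone.

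**Figure D1:**
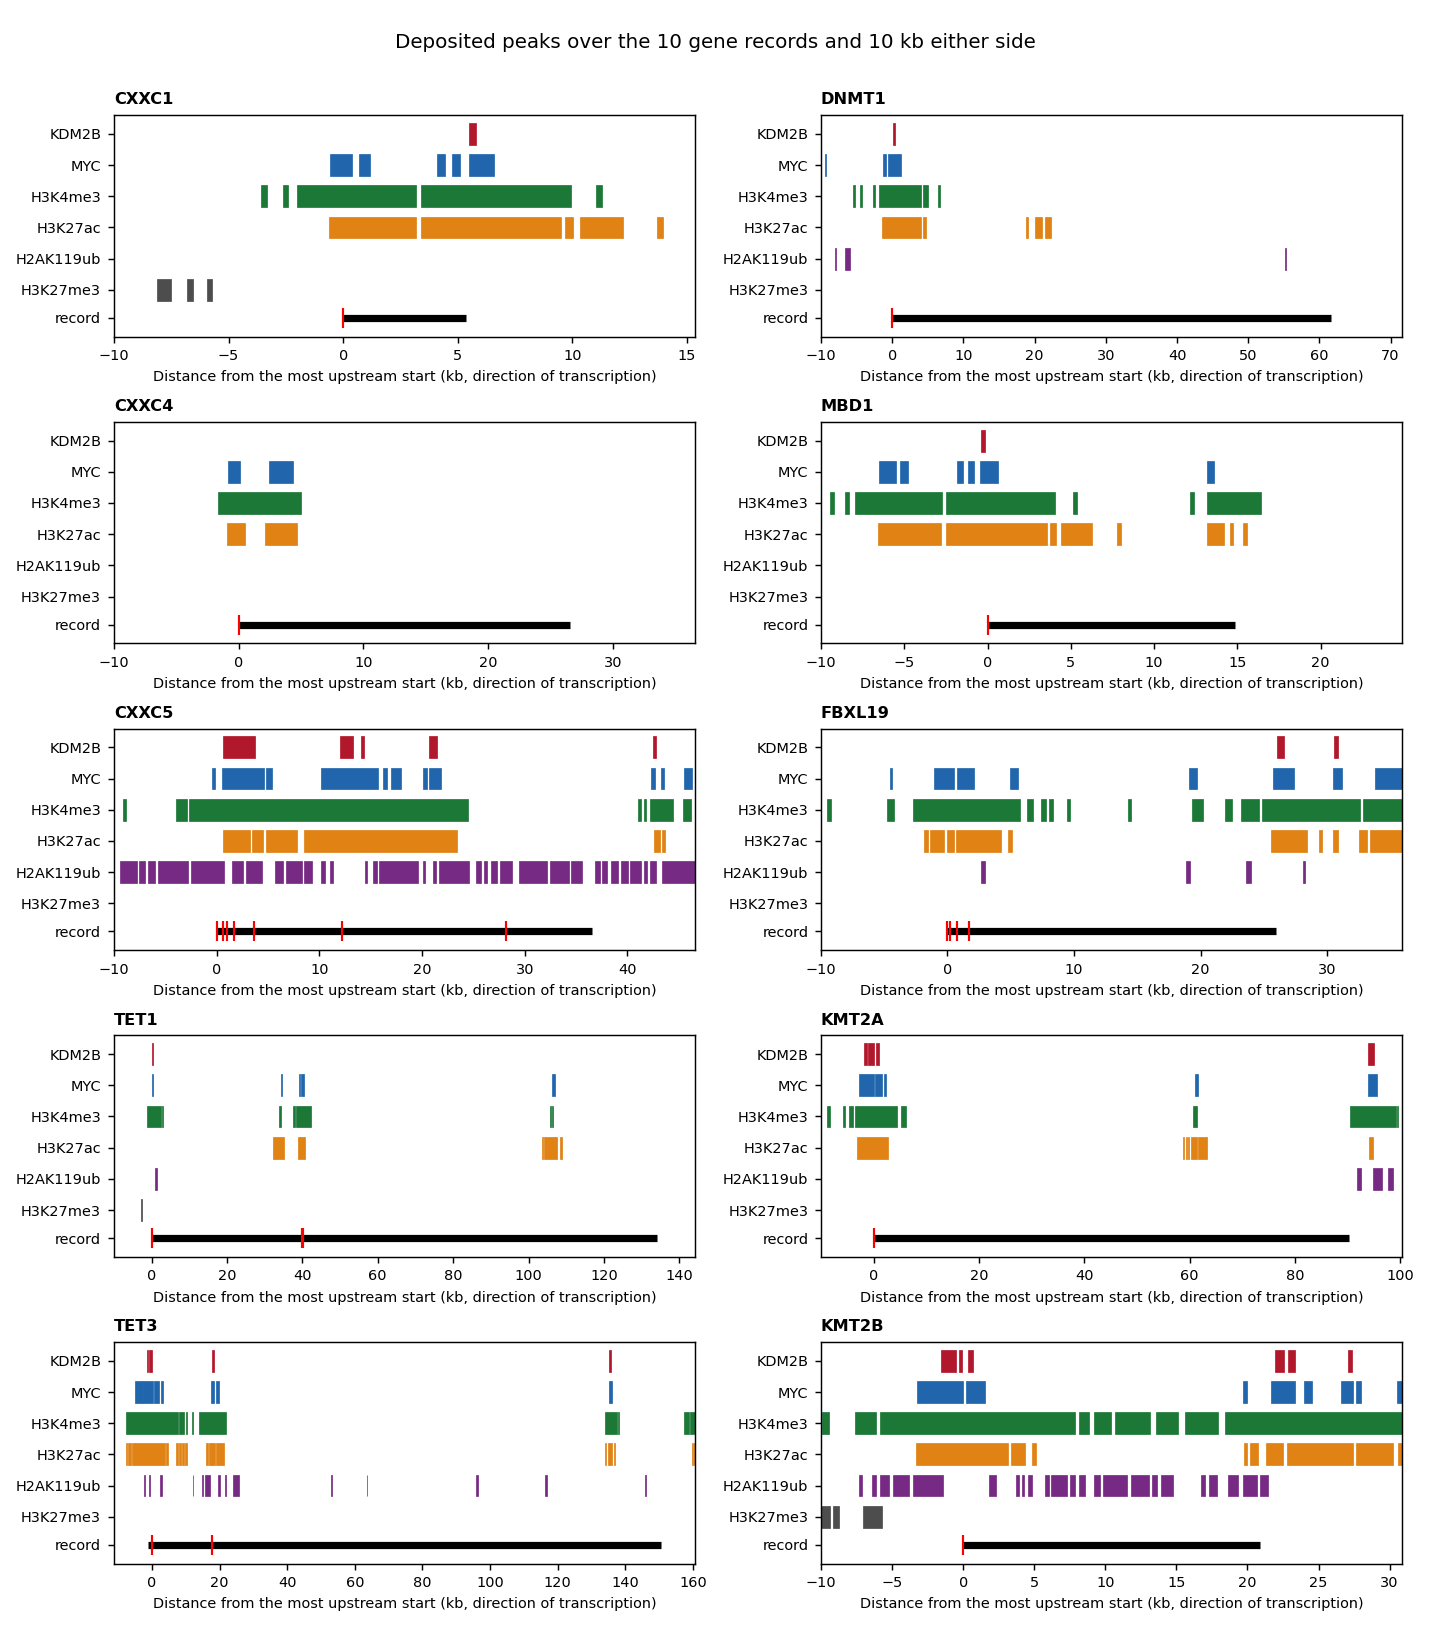
Deposited peaks over each gene record and 10 kb either side, 1 panel per gene and 1 row per target, with the distance from the most upstream start in kb along the horizontal axis, in the direction of transcription. MYC, H3K4me3 and H3K27ac had peaks in all 10 panels, KDM2B in 9, and H2AK119ub covered 69% of the CXXC5 window.

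Within 1 kb of a gene start, the comparison was narrower. The RefSeq promoter table gave 22 starts for the 10 members and starts for 15812 genes in all. MYC, H3K4me3 and H3K27ac were present at a start of all 10 members, against 66.2%, 70.7% and 65.6% of genes with a start in the table. KDM2B was present at a start of 7 members, against 49.8% of genes, and was missing at CXXC1, CXXC4 and FBXL19. H2AK119ub was present at 4 (CXXC5, TET1, TET3 and FBXL19), against 34.5%, and H3K27me3 at 0, against 20.7%. All 10 members thus carried the marks of active promoters, while KDM2B and H2AK119ub were present at some and not at others. A gene counted when any of its starts had the target, so a gene with more starts had more chances. The table held 22132 starts for the 15812 genes. With only the most upstream start of each member, H3K27ac was at 9, without TET1, and H2AK119ub at 3, without FBXL19. The other targets kept their counts.

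The fold given with each peak is the authors' enrichment over background at the summit, and folds of different lists cannot be set against each other. At the starts, the highest KDM2B fold of the 7 members ran from 2.30 to 6.03 with a median of 3.76, against 3.93 for all genes with KDM2B at a start. The MYC fold of the 10 members ran from 5.40 to 37.1 with a median of 14.3, against 11.6. For H3K4me3 the range was 25.8 to 62.0 and the median 39.4, against 43.3. Neither factor nor mark was thus uniform over the members: 3 of 7 were above the median of all genes for KDM2B, 6 of 10 for MYC, and 4 of 10 for H3K4me3. The H3K27ac fold ran from 8.16 to 56.3 with a median of 29.4, against 25.0 for all genes, and 6 of 10 members were above it.

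**Figure D2:**
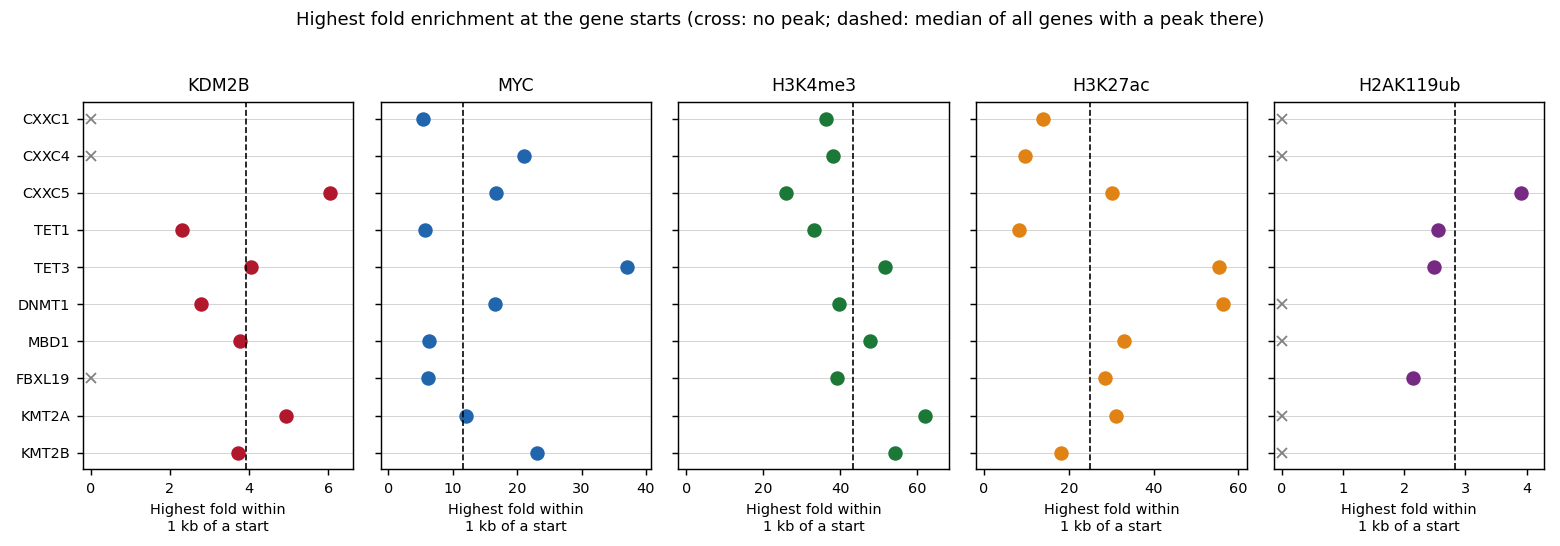
Highest fold enrichment within 1 kb of any start of each gene, 1 panel per target with its own linear axis, points for genes, crosses for genes without a peak, and a dashed line at the median of all genes with a peak there. KDM2B was highest at CXXC5 (6.03) and lowest at TET1 (2.30), and MYC was highest at TET3 (37.1).

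The promoters on which the comparison of starts turns are shown as 250 bases upstream of a RefSeq start (GRCh38.p14), 5′ to 3′ in the direction of transcription. CpG dinucleotides are in capitals, because they are the letters a CXXC domain reads. CXXC1 and MBD1 are neighbours with equal CpG counts and unlike KDM2B, CXXC4 lacked KDM2B altogether, TET1 and DNMT1 had the lowest KDM2B folds when each member's highest peak at a start is taken, and TET3 and KMT2B had the most CpG.
CXXC1, chr18:50287693-50287942, minus strand: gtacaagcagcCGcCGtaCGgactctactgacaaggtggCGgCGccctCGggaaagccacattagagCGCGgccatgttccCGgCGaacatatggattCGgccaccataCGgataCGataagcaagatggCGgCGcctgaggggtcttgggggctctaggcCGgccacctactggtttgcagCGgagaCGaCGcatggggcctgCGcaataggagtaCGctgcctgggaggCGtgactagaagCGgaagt
MBD1, chr18:50281768-50282017, minus strand: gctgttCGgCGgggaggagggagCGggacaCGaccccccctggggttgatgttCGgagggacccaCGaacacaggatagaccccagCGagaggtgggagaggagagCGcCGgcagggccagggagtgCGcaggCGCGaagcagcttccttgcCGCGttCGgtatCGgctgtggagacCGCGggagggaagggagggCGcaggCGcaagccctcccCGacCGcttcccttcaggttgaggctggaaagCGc
CXXC4, chr4:104494895-104495144, minus strand: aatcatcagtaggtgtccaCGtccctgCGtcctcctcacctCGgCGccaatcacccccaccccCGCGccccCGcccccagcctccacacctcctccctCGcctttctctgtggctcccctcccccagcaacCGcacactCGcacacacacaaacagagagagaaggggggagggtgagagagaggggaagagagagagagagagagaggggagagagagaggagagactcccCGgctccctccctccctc
TET1, chr10:68560087-68560336, plus strand: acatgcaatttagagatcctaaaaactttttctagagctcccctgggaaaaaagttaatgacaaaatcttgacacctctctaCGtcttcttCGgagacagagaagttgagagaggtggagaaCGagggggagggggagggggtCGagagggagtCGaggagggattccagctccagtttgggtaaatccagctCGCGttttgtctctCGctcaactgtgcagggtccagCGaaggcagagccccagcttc
DNMT1, chr19:10194954-10195203, minus strand: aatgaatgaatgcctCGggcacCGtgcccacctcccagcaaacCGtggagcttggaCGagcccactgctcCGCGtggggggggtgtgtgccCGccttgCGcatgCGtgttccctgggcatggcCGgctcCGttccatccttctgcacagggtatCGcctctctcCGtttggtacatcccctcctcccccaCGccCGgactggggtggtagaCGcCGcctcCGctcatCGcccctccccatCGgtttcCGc
TET3, chr2:73984660-73984909, plus strand: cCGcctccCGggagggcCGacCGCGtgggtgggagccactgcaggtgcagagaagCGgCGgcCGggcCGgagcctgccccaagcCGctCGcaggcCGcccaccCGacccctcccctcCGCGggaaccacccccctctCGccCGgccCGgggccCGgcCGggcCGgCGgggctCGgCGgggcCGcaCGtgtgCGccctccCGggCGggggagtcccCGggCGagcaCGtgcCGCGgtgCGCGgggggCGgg
KMT2B, chr19:35717753-35718002, plus strand: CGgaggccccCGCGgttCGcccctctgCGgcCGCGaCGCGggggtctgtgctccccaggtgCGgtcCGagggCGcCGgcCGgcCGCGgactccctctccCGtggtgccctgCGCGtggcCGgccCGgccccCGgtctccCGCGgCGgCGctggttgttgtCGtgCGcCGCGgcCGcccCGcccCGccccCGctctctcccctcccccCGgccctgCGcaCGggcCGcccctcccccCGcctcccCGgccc

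Among these, KMT2B held 40 CpG dinucleotides and TET3 37, while CXXC1 and MBD1 held 23 each, DNMT1 21, CXXC4 11 and TET1 9. The 13 member starts with KDM2B within 1 kb had a median of 23 CpG, against 14 for the 9 member starts without it. Over all genes, 10271 starts with KDM2B, MYC and H3K4me3 had a median of 23, 3505 starts with MYC and H3K4me3 but no KDM2B had 17, and 7072 starts without H3K4me3 had 4. Starts of 1 gene that lie close together share peaks, so member starts are not independent, and single starts went against the order of these medians. The start of TET1 with KDM2B had 9 CpG, and the CXXC5 start at 139659555, with KDM2B at a fold of 3.21, had 2. The counted bases need not lie under the KDM2B peak. At this TET1 start and at DNMT1 that peak lay downstream of the start, so none of the 250 bases lay under it. The same held at the CXXC5 starts at 139647299 and 139647904 and at the TET3 start at 74002692. Among the opposite cases, without KDM2B, were CXXC1 with 23 CpG and the FBXL19 start at 30924575 with 26.

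**Figure D3:**
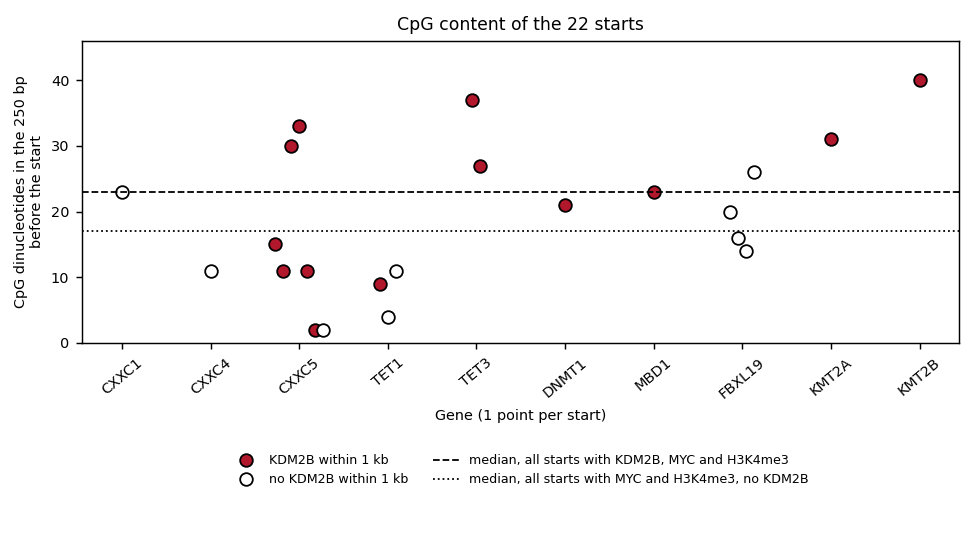
CpG dinucleotides in the 250 bp before each of the 22 starts, 1 point per start, by gene, with points coloured by whether KDM2B lay within 1 kb, and lines at the medians of all starts with KDM2B, MYC and H3K4me3 (23) and with MYC and H3K4me3 without KDM2B (17). KMT2B (40) stood highest, and starts of CXXC5 ran from 2 to 33.

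The E-box CACGTG, which reads the same on both strands, occurred before 2 of 22 member starts (9.09%), against 7.37% of 22132 starts in the table. TET3 held 2 copies, beginning 67 and 27 bases before its first start, and that start had the highest MYC fold of the members, 37.1. FBXL19 held 1, beginning 125 bases before the start at 30924575, where the MYC fold was 4.48. The other members, among them KMT2B with a MYC fold of 23.1 and CXXC4 with 21.1, had MYC at the start with no CACGTG in this window. The letters CGCG, which also read the same on both strands, occurred before 15 of 22 member starts (68.2%), against 58.2% of all starts.

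The H3K4 methyltransferase genes are described first. KMT2A (MLL1, chromosome 11, 118436492 to 118526832) encodes the methyltransferase rearranged in a class of acute leukaemias, and KMT2B (chromosome 19, 35718003 to 35738878) its closest relative. KMT2A had the highest H3K4me3 fold at a start among the members, 62.0 over a peak of 8102 bp, at percentile 95.7 of genes with the mark at a start. Its 3 KDM2B peaks around the start had folds of 3.86, 3.93 and 4.92. The start itself lay in a gap of 420 bp between the upstream and downstream KDM2B peaks, with edges 24 bp upstream and 397 bp downstream, while a MYC peak with a fold of 12 covered the start. A further KDM2B peak, with a fold of 3.40, lay beyond the end of the record at the starts of TMEM25 and TTC36.

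KMT2B showed the same arrangement. Its start lay in a gap of 445 bp between KDM2B peaks, with folds of 3.72 and 3.05 upstream and 2.53 downstream. MYC covered the start with a fold of 23.1, at percentile 86.5, and H3K4me3 with 54.3 over 13704 bp. H3K4me3 peaks covered 89% of the KMT2B window, which also holds the starts of neighbours. Of 3 further KDM2B peaks beyond its end, the highest had a fold of 4.97, and 1 lay at the starts of PSENEN and U2AF1L4.

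CXXC1 (chromosome 18, 50282347 to 50287692), which encodes the CpG-binding subunit CFP1 of the SETD1 H3K4 methyltransferase complexes, had a start with MYC at a fold of 5.40, H3K4me3 at 36.2 and H3K27ac at 14. These lay at percentiles 13.7, 29.4 and 25.6 of genes with each target at a start. Its only KDM2B peak, at 50281898 to 50282191 with a fold of 3.76, lay beyond the end of the record and within 1 kb of the start of MBD1, so the count of 9 members with KDM2B rests for CXXC1 on the promoter of its neighbour. MBD1 (chromosome 18, 50266885 to 50281767) encodes a repressor that binds methylated CpG and also carries CXXC domains. At the MBD1 start, that KDM2B peak had its summit 225 bp upstream, beside MYC at 6.32, H3K4me3 at 47.6 and H3K27ac at 33. The 2 genes are transcribed in the same direction, MBD1 downstream of CXXC1.

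Of the enzymes acting on cytosine methylation, DNMT1 (chromosome 19, 10133346 to 10194953) encodes the maintenance methyltransferase, which copies methylation onto new DNA strands. Its KDM2B peak was narrow and low, 317 bp at a fold of 2.78 and at percentile 8.43, with its summit 117 bp downstream of the start. The same start had MYC at 16.6 (percentile 71.2), H3K4me3 at 39.6 (percentile 38) and H3K27ac at 56.3 (percentile 90.3), so H3K4me3 was below the median of all genes and H3K27ac was the highest of the members. No H2AK119ub lay within 1 kb of the DNMT1 start.

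TET1 (chromosome 10, 68560337 to 68694487) and TET3 (chromosome 2, 73983631 to 74135498) encode dioxygenases that oxidise methylated cytosine, the first step of active demethylation. The pair differed at their starts. TET3 had MYC at 37.1, H3K4me3 at 51.5 over 15328 bp and H3K27ac at 55.4 at its first start, with KDM2B at 4.05. Its second start had MYC at 5.47, H3K4me3 at 31.5, H3K27ac at 4.51 and KDM2B at 3.23. TET1 had weak values at its first start, with KDM2B at 2.30, MYC at 2.57, H3K4me3 at 19.6 and no H3K27ac. That KDM2B peak had a −log10 q of 1.70, near the limit of the list. The other 2 starts of TET1 lie further into the record and had no KDM2B, with MYC at 5.64, H3K4me3 at 33.3 and H3K27ac at 8.16. KDM2B at TET1 was thus at the start with the lower MYC and H3K4me3 and without H3K27ac.

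Each of these TET records also held a site away from the listed starts. Within TET3, KDM2B at 3.32, MYC at 12, H3K4me3 at 36.8 and H3K27ac at 34.2 lay at 74120059 to 74120672, a peak that overlaps the record of the pseudogene FNBP1P1. Reads from a pseudogene may match another copy and then cannot be placed with certainty. Whether that holds there was not tested. Within TET1, a site had MYC at 6.55, the highest MYC fold of the gene, with H3K27ac at 23.5 and H3K4me3 at 5.14, and no KDM2B. KMT2A also held an internal site with H3K27ac at 18.4, H3K4me3 at 4.38 and MYC at 2.99. Whether such sites are exonic or intronic could not be read from gene records.

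CXXC5 (chromosome 5, 139647299 to 139683882) encodes a small CXXC protein, also called RINF, that inhibits Wnt signalling through Dishevelled. It had the highest KDM2B fold at a start of the members, 6.03 at percentile 93.6. That KDM2B peak ran from 139647959 to 139651064, 3106 bp, and was wider than 99.7% of KDM2B peaks. CXXC5 held 5 KDM2B peaks in all. The highest fold, 6.1, lay inside the record at the start of LOC124901084, and the peak at the start at 139659555 had 3.21. H3K4me3 formed 1 peak of 27196 bp, wider than 99.9% of peaks in its list, with a fold of 25.8, the lowest of the members. The CXXC5 start at 139675443 had H2AK119ub at 3.08 and no other target, so starts of the same gene differed.

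CXXC4 (chromosome 4, 104468308 to 104494894) encodes IDAX, the closest relative of CXXC5 and likewise an inhibitor of Wnt signalling. It had no KDM2B, H2AK119ub or H3K27me3 in its record or flanks. MYC at its start had a fold of 21.1, at percentile 83.1, above the value of 12.3 at the first starts of CXXC5. H3K27ac at its start was 9.69. The H3K4me3 peak of 6612 bp had a fold of 38.2, with its summit 3791 bp inside the record, near the start of the antisense gene CXXC4-AS1, and it covered the start of CXXC4. This 1 peak reached both starts, so H3K4me3 cannot be divided between CXXC4 and CXXC4-AS1. MYC and H3K27ac each had a separate peak within 1 kb of a CXXC4-AS1 start, with folds of 6.78 and 14.4. ChIP signal carries no strand, so position alone sets these peaks apart.

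FBXL19 (chromosome 16, 30922851 to 30948783) encodes an F-box protein with a CXXC domain, related to KDM2A and KDM2B. KDM2B was absent within 1 kb of its 4 starts. Its KDM2B peaks, with folds of 4.31 and 2.29, lay beyond the end of the record, the first of them at the start of ORAI3. The starts of FBXL19 had MYC at 6.09 or 4.48, H3K4me3 at 39.2 and H3K27ac at 28.6 or 12. Each of these peaks also lay within 1 kb of a start of the antisense gene FBXL19-AS1, so they cannot be given to FBXL19 alone. The highest MYC fold in its window, 25.1, was at the start of the neighbour SETD1A, whose product is the catalytic subunit of a complex that holds CXXC1.

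The 24 distinct KDM2B peaks of the members, 25 counting the CXXC1 and MBD1 peak for each, had folds from 2.29 to 6.1 with a median of 3.27, against 3.29 for all KDM2B peaks on the same chromosomes. Their median width was 532 bp, against 385 bp. Of these peaks, 12 lay at an own start, with the summit upstream in 6 and downstream in 6. Every KDM2B peak of the members overlapped MYC and H3K4me3 (24 of 24 each), against 81.7% and 78.3% of all KDM2B peaks, and 23 (95.8%) overlapped H3K27ac, against 74.1%. The exception was the peak of TET1. H2AK119ub overlapped 6 (25.0%), against 24.6%, and H3K27me3 overlapped 0, against 4.91%. The members' peaks lie in or near a gene by the rule that assigned them, while the comparison takes every KDM2B peak wherever it lies. These shares are therefore not matched for position.

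Although MYC and KDM2B overlapped, MYC more often covered the start base itself. MYC peaks were wider, with a median of 535 bp over the list against 385 bp for KDM2B. A wider peak can cover a given base more often by its width alone. A MYC peak covered at least 1 start of all 10 members, against 89.9% of genes with MYC at a start. A KDM2B peak covered a start at 1 of the 7 members with KDM2B, CXXC5, against 41.8% of genes with KDM2B at a start. At TET1, TET3, DNMT1, MBD1, KMT2A and KMT2B the nearest KDM2B edge was 24 to 131 bp from a start. The distance from the summit of each member's highest KDM2B peak to the nearest MYC summit was taken wherever that peak lay. For a peak at an own start it was 49 bp at DNMT1, 72 bp at TET1 and at KMT2A, and 149 bp at TET3. At CXXC1 and MBD1, which share the peak at the MBD1 start, it was 618 bp. For a peak away from an own start it was 12 bp at FBXL19 (at ORAI3) and 40 bp at CXXC5 (at LOC124901084). At KMT2B the highest peak lay beyond the end of the record, and its distance of 552 bp does not describe the KMT2B start. The median of these 9 values was 72 bp, against 124 bp for the highest KDM2B peak of each of the 11865 genes with KDM2B in record or flanks. With MYC peaks of q under 1e-5 only, the median of the members was 149 bp and the distance at TET1 was 33071 bp.

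**Figure D4:**
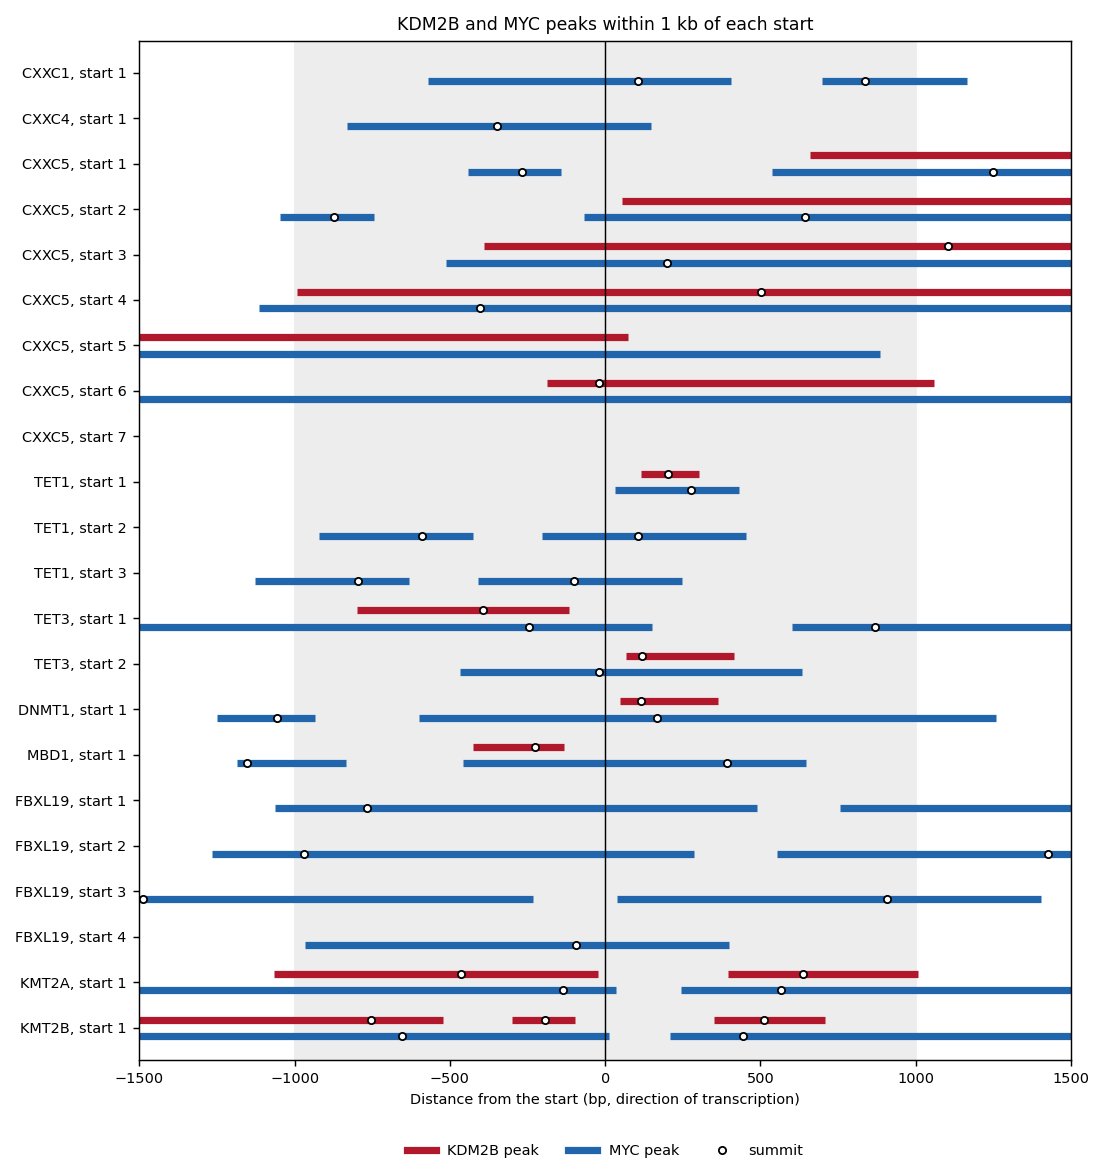
KDM2B and MYC peaks within 1 kb of the starts, as bars along the distance from the start in bp in the direction of transcription, with circles at summits. KDM2B peaks lay on both sides of the KMT2A and KMT2B starts, with gaps of 420 and 445 bp over the start, while MYC peaks covered it.

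At 6 members (CXXC5, TET3, DNMT1, MBD1, KMT2A and KMT2B) KDM2B, MYC, H3K4me3 and H3K27ac met within 1 kb of the same start, as at 48.0% of genes. All 10 had MYC, H3K4me3 and H3K27ac together at a start, against 63.0%. CXXC1, CXXC4 and FBXL19 had these 3 with KDM2B at no start, against 14.9%. KDM2B and H2AK119ub, the mark that ncPRC1.1 places, lay within 1 kb of the same start, with H3K27me3 at no start, at CXXC5, TET1 and TET3. The share of genes was 11.4%. This count does not ask that the peaks overlap, and at TET1 the KDM2B peak did not overlap H2AK119ub. At KMT2B, outside this count, a KDM2B peak at the start overlapped an H2AK119ub peak that ended more than 1 kb upstream of the start.

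The Polycomb marks were concentrated in few members. H2AK119ub covered 69% of the CXXC5 window, 39043 bp in 33 peaks, at percentile 97.5 of all protein-coding genes, and no H3K27me3 lay there. With flanks of 20 kb in place of 10 kb, CXXC5 was among the members with H3K27me3, so its absence holds for the nearer window. Of 494 genes with at least that coverage, 60 had no H3K27me3 in their 10 kb window. KMT2B came next with 37.8%, 15458 bp in 23 peaks, at percentile 86.8. Over all members the median coverage was 1.97%, against 2.36% of all genes, so CXXC5 and KMT2B stood apart from the other 8. With q under 1e-5, coverage was 60.8% in CXXC5 but 16.7% in KMT2B.

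In CXXC5 the highest H2AK119ub fold, 3.90, was at the start, in a peak that overlapped the edge of the wide KDM2B peak. In KMT2B the mark stopped at 35716566 upstream and resumed at 35719792, leaving the start base itself free of it. The MYC and H3K4me3 peaks over that start reached beyond this gap and overlapped H2AK119ub. TET3 had H2AK119ub at 2.49 and 2.41 within 1 kb of its starts, TET1 at 2.56 and FBXL19 at 2.14 near its start at 30924575. In KMT2A the 3 H2AK119ub peaks lay beyond the end of the record. With q under 1e-5, CXXC5 was the 1 member left with H2AK119ub at a start.

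H3K27me3 was found in flanks only. CXXC1 had 3 peaks upstream with folds of 2.10, 2.33 and 3.09, covering 4.44% of its window and part of a run of 9 peaks over 11410 bp that reached beyond it. KMT2B had 3 peaks upstream with folds of 2.84, 2.28 and 1.62, covering 5.91%, on the side of its neighbour ZBTB32. TET1 had 1 upstream peak with a fold of 1.94. No member had H3K27me3 within its own record.

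**Figure D5:**
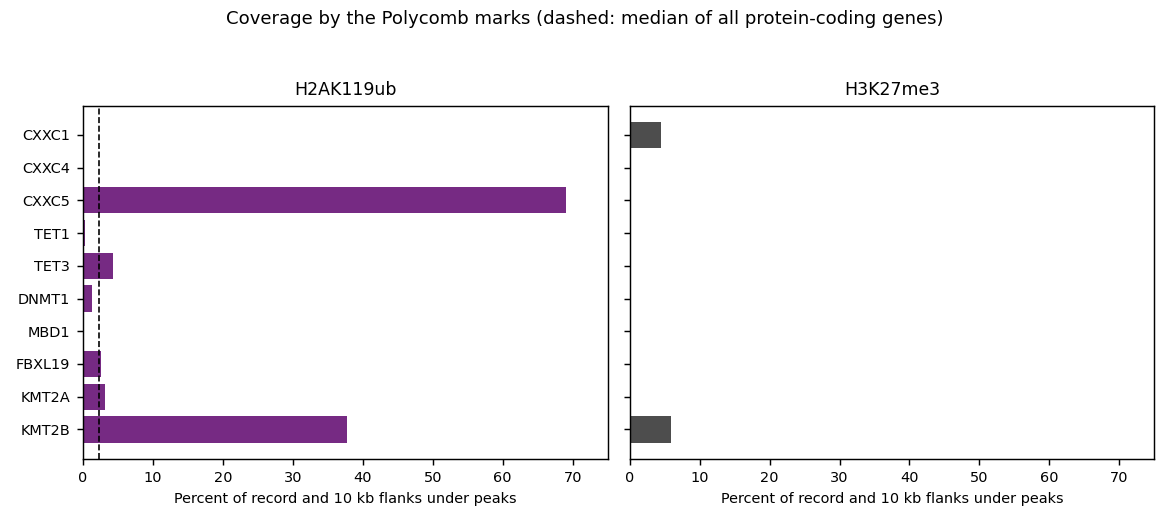
Percent of each gene record and 10 kb flanks under deposited peaks of H2AK119ub and H3K27me3, 1 bar per gene from 0, with a dashed line at the median of all protein-coding genes. CXXC5 (69%) and KMT2B (37.8%) stood above the rest in H2AK119ub, and CXXC1 (4.44%) and KMT2B (5.91%) in H3K27me3.

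Other genes of the same pathways were read from lists chosen by function. The 2 further CXXC genes of this kind, KDM2A and KDM2B, both had KDM2B at a start, with folds of 5.49 and 5.73. Of 7 other genes of DNA methylation and its removal with a start in the table, 4 had KDM2B: TET2 at 6.09, UHRF1, which guides DNMT1 to newly copied DNA, at 5.16, HELLS at 4.09 and DNMT3A, a de novo methyltransferase, at 3.43. DNMT3B, UHRF2 and TDG did not. MYC, H3K4me3 and H3K27ac were at starts of 6 of these 7, and H2AK119ub at 3: DNMT3A, DNMT3B and UHRF1.

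Among 8 readers of methylated DNA with a start in the table, 3 had KDM2B: MBD3 at 4.86, MBD4 at 4.17 and ZBTB4 at 2.77. All 8 had MYC, H3K4me3 and H3K27ac at a start, and H2AK119ub was at 0. Of 8 partners and relatives in H3K4 methyltransferase complexes, 5 had KDM2B, with KMT2C at 4.04, MEN1 at 3.42, KMT2D at 2.77, WDR5 at 2.76 and WDR82 at 2.68. All 8 again had MYC, H3K4me3 and H3K27ac, and none had H2AK119ub or H3K27me3 at a start. Over all genes with a start in the table, 49.8% had KDM2B there, and the shares in the lists of DNA methylation, readers and H3K4 complexes lay on both sides of it, in lists of 7 or 8 genes. These counts describe the lists and show nothing particular to them.

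The identity of the line was read from peaks, not expression. All 6 mesenchymal genes looked up (VIM, CD44, EGFR, AXL, CAV1 and ZEB1) had H3K4me3 and H3K27ac at a start. Of 5 luminal or hormone receptor genes with a start in the table, all had H3K4me3 and 3 had H3K27ac (ERBB2, GATA3 and FOXA1), while ESR1 and PGR had no H3K27ac there. Over all genes the shares at a start were 70.7% for H3K4me3 and 65.6% for H3K27ac. CDH1, EPCAM and KRT19, the luminal genes looked up that have no start in the table, had H3K27ac in their record or flanks with folds of 46.5, 10.6 and 19.8, which left PGR as the 1 of 8 luminal genes without it there.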

How the data were processed

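Libraries were assigned to 9 groups from their titles, by antibody and by parental or empty-vector cells. Enzymes were used to fragment the chromatin, per the labels' protocols. The submitters' processing notes name build hg38 and MACS2 2.2.7.1, Bowtie2 2.4.5, SAMtools 1.6 and Trim Galore without a version. How the libraries of a target became 1 list, and against which control, was not given in the sources used here. Every list is in narrow-peak form, so broad marks can be split into many peaks.

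The deposited lists give a score, a fold (the authors' ratio over background at the summit), and the −log10 q-value of the authors' peak caller. The −log10 p-value was not used here. Other deposited columns give the peak's start, end and summit. Lists held 20018 (KDM2B), 49833 (MYC), 71597 (H3K4me3), 95771 (H3K27ac), 234493 (H2AK119ub) and 306484 (H3K27me3) peaks. They hold no read counts, so depth is unknown and no test was made.

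Gene records came from RefSeq GRCh38.p14 and starts from its promoter table, which gave strand. A start had a target when a peak overlapped 1 kb either side by at least 1 bp. The fold is that of the whole peak, whose summit can lie outside the window. Percentiles are among genes with that target at a start, or among all genes for coverage. Peak assignment was checked on 1000 simulated queries, with 0 wrong, in Python 3.11.15 with pandas 2.3.3 and numpy 2.4.6.

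The members and lists were chosen with earlier results of these data known. Named genes were all members, KDM2A and KDM2B, up to 4 of each related list with the highest KDM2B fold at a start, every gene of a count of 5 or fewer, and genes sharing a member's window. Protein sequences were not used here, so a planned comparison of CXXC domains was left out. Alternatives were other flanks and start windows, q under 1e-5, the 15000 peaks of highest fold, summits, both record ends, peaks merged across 3 kb, and only the most upstream start, the last chosen after seeing the data.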

Additional observations from a re-analysis of the deposited data

How the results depend on the processing

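No paired analysis was possible because the lists do not resolve the libraries of a target, and for the same reason no library could be left out. Of 78 alternative counts of members, 69 stayed within 1.5 times the reported one and 9 moved, all for H2AK119ub or H3K27me3. The cause was not tested. The setting of 15000 peaks is unequally strict. It keeps most of the 20018 KDM2B peaks but a small part of the 234493 H2AK119ub and 306484 H3K27me3 peaks. Members with H2AK119ub in record and flanks numbered 4 with q under 1e-5 and 1 among the 15000 peaks of highest fold, against 7. Members with H3K27me3 there numbered 0 with no flank, 1 with 5 kb, 7 with 20 kb and 0 among the 15000 peaks of highest fold, against 3. Members with H2AK119ub at a start numbered 1 with windows of 500 bp, with q under 1e-5 and among the 15000 peaks of highest fold, against 4. The median highest fold over the whole window, taken with 1 kb flanks in place of 10 kb, was 3.76 for KDM2B (against 4.05), 14.3 for MYC (against 16.7), 30.7 for H3K27ac (against 33) and 2.74 for H2AK119ub (against 2.72). H3K27me3 gave no value there. Median H2AK119ub coverage was 3.93% with peaks merged across 3 kb and 0% with q under 1e-5, against 1.97%. The median distance from KDM2B to MYC summits was 149 bp with MYC q under 1e-5, against 72 bp. KDM2B at starts stayed within 1.5 times but lost TET1 and DNMT1 with q under 1e-5, leaving 5, and gained CXXC1 and FBXL19 with both record ends, giving 9. With no flank, KDM2B was left at 6 members, without CXXC1, MBD1 and FBXL19. Depth behind the lists is unknown, so a missing peak says only that none was listed.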
